A study of Homo sapiens with 8 samples.

Results

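The genes described here are 40 genes of the TGF-beta, BMP and GDF pathway, of 14884 genes measured in 8 clonal isolates of the human prostate cancer line PC-3. They were chosen by symbol, with earlier results of these data known. The rule took genes named TGFB, BMP, GDF, INHB, ACVR, SMAD or LTBP in the probe annotation used, together with NOG, FST, GREM1 and BAMBI. Antisense genes with such names, 4 in all, were left out, and a gene with several probe sets was read from the one brightest on average. By role, the 40 genes were 20 ligands, 1 receptor, 8 SMADs, 4 latent binding proteins, 4 extracellular antagonists or pseudoreceptors, and 3 genes that share the name but act elsewhere. The TGF-beta and activin ligands and all receptors other than ACVRL1 were not analysed here.

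Each group held 4 clones, with 1 Affymetrix array per clone and total RNA as the material. The RWDD4 group (clones 17, 24, 5 and 6) carried a p-Lenti vector with the RWDD4 gene, and the control group (clones 2, 3, 4 and 5) carried the empty vector. All 8 isolates had been selected with the antibiotic blasticidin (spelled blastocydin in the labels) and propagated as clones. PC-3 is an androgen-independent epithelial line. Each sample was 1 clone, so the spread within a group is the spread between clones of 1 cell line, and a clone's own history cannot be told apart from the vector it carries. The comparison addresses the expression changes that go with RWDD4 overexpression.

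In this pathway, secreted dimeric ligands bring together type I and type II receptor kinases on the cell surface. The receptors phosphorylate receptor SMADs, SMAD2 and SMAD3 for TGF-beta and activin and SMAD1, SMAD5 and SMAD9 for BMP ligands. These pair with the common SMAD4 and enter the nucleus, while SMAD6 and SMAD7 inhibit the relay. Latent binding proteins hold TGF-beta in the matrix, and noggin, gremlin and follistatin capture ligands outside the cell. In prostate epithelium, TGF-beta is best known for restraining growth of normal cells and for acting on invasion and bone metastasis in cancer.

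The upstream sequences of GDF15, GREM1, LTBP1 and SMAD4 are shown because GDF15 fell and LTBP1 rose the most among the 40 genes, SMAD4 is the SMAD shared by all branches, and GREM1 held the most matches to SMAD elements among the genes that changed. Each run is the 250 bases before the annotated start in RefSeq (GRCh38.p14), 5′ to 3′ on the gene's strand, with the first of several starts on the chromosome taken for GREM1 and LTBP1. The positions are chr19:18385908-18386157 for GDF15, chr15:32717754-32718003 for GREM1, chr2:32946703-32946952 for LTBP1 and chr18:51029963-51030212 for SMAD4, all on the plus strand. Capitals mark the SMAD element CAGAC or its reverse GTCTG, the GC-rich SMAD element GGCGCC and, on the gene's strand only, TATAAA.
GDF15: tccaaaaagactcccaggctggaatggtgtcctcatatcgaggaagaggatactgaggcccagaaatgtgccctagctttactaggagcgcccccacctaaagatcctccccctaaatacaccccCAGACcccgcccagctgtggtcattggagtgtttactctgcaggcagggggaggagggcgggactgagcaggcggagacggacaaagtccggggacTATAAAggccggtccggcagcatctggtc
GREM1: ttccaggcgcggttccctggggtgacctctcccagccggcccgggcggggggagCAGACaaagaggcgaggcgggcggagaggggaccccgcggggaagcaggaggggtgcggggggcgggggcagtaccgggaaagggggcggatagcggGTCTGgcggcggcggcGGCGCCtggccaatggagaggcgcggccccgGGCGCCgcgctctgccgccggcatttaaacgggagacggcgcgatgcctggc
LTBP1: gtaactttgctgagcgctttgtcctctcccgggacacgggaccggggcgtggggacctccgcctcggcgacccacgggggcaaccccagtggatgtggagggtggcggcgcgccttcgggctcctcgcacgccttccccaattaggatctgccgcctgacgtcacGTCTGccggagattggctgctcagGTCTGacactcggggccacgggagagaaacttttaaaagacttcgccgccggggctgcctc
SMAD4: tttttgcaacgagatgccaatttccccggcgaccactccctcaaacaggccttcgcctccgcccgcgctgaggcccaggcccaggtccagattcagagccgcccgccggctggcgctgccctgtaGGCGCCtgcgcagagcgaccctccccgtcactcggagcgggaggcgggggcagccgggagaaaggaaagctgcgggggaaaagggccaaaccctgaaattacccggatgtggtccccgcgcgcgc

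A search of both strands found CAGAC in 38% of all 35116 upstream windows of 250 bases and GGCGCC in 16.4%. TATAAA stood in 6.8% on the gene's strand. Windows were found for 32 of the 40 genes, 55 windows in all, since some genes have several starts. CAGAC stood in 3 of 8 windows of genes that rose, in 5 of 11 windows of genes that fell and in 12 of 36 windows of genes that did not pass the test. GGCGCC stood in 3, 3 and 9 of these windows. Windows of the same gene are not independent, and some overlap. For genes that rose, the CAGAC windows were all of LTBP1, and the GGCGCC windows were of SMAD2 and SMAD4. For genes that fell, the CAGAC windows were of BMP8A, GDF15, GDF5 and GREM1, and the GGCGCC windows of GDF1, GDF10 and GREM1. The windows were rich in G and C, with a median of 67.4% for the genes that rose and 71.6% for those that fell, against 58% for all windows. A match describes letters in a window and not a bound site.

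The values are log2 values normalized between arrays by the authors. They compare a gene between clones and cannot rank the levels of different genes. Where a level is set beside the median of all probe sets below, it describes the signal and does not show presence or absence. The words rose, fell and changed are kept for genes with a limma adjusted p under 0.05 for RWDD4 minus control clones (Benjamini-Hochberg over 14884 genes). RWDD4 itself ranged from 9.87 to 10.46 where overexpressed and from 6.64 to 8.0 with the empty vector (exact permutation p 0.0286, two-sided, the smallest that 4 against 4 clones allow). Among epithelial markers, KRT18 lay at 10.49 to 11.20 and KRT19 at 10.04 to 11.06 over the 8 clones. The other epithelial markers measured, KRT8, CLDN4, CLDN7 and EPCAM, lay at 5.84 to 7.21. Of 3 stromal markers, DCN and LUM lay at or under 3.19 in every clone, below the median of all probe sets, and did not pass. THY1 lay above that median, at 5.99 to 6.76, and fell by 0.36. KLK3, chosen as a gene low or absent in PC-3, also lay above it, at 5.49 to 6.10, and did not pass. Its range overlapped that of CLDN7, at 5.84 to 6.70, so a level does not show here whether a gene is expressed. The blood marker CD14 fell by 0.42. Of 6 epithelial markers measured 5 fell, with list means of 7.71 to 7.79 with RWDD4 and 8.01 to 8.19 in the controls. Their part in the results below was not tested.

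Of the 40 genes 6 rose and 13 fell, which is 47.5% changed, against 46.7% of all genes tested. The share that changed was therefore near the background. Rises made up 15% of the 40 genes, against 25.1% of all genes, and falls 32.5%, against 21.6%. The median difference was -0.20 over the 40 genes and -0.08 over all genes. The balance depended on scaling: after cyclic loess 7 rose and 8 fell, and over all genes 3980 rose and 2200 fell, against 3741 and 3214 as deposited. The groups did not overlap in 17 of the 40 genes (42.5%, against 44.8% of all genes). RWDD4 clones were the higher group in 6 of these and the lower in 11, against 23.7% and 21.1% of all genes. At least 2-fold rises numbered 5 of 40 and at least 2-fold falls 1 of 40, against 9.74% and 0.417% of all genes. Of these rises, SMAD2 and SMAD4 were under 2-fold without control clone 2, at 0.76 and 0.75. The share of all genes was not recounted for that setting. A further fit took as a covariate where each array lies along the main direction in which clones of a group differ, called the within-group axis below. In it 0 of the 40 genes passed in limma, against 1 of all 14884 genes. An unadjusted p under 0.05 was found for 10 of the 40 genes and for 1910 of the 14884. Positions were -1.09 to -0.60 for RWDD4 and 0.37 to 1.77 for control clones, so the axis and the group are hard to separate.

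**Figure D1:**
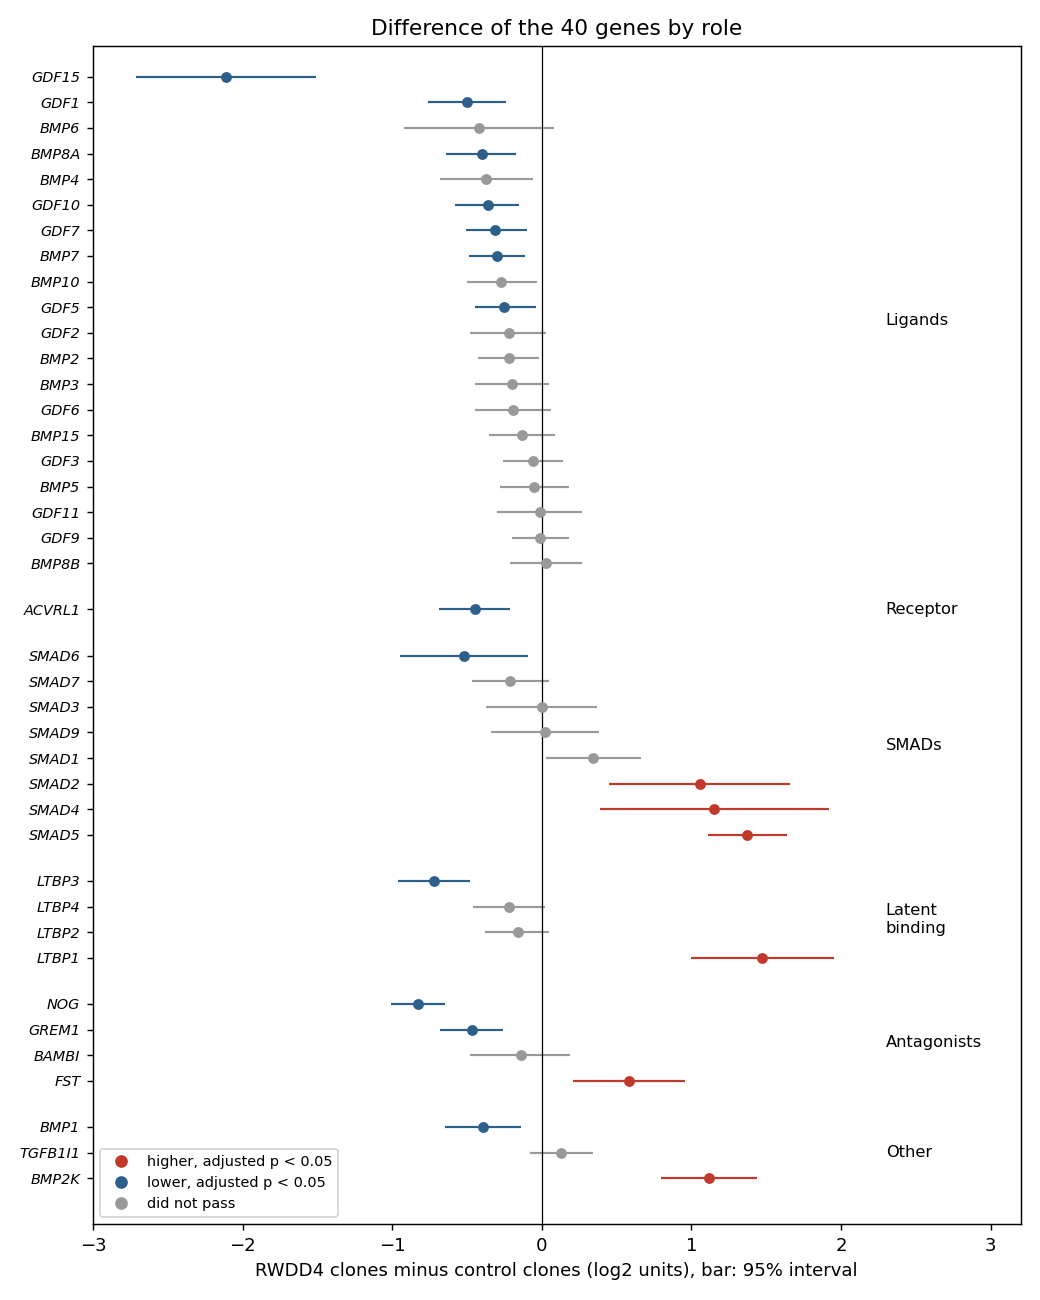
Difference between RWDD4 and control clones (log2 units) for each of the 40 genes, grouped by role; points are the fitted differences, bars their 95% intervals, red and blue mark genes that rose or fell at an adjusted p under 0.05, and grey marks the rest. No ligand rose, SMAD2, SMAD4 and SMAD5 lie to the right of 0, and LTBP1 (1.47) and LTBP3 (-0.72) lie on opposite sides.

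Among the ligands, 7 of 20 fell and none rose, with a median of -0.24, and 19 of the 20 differences were below 0. Of all genes tested 21.6% fell, and 8834 of 14884 differences were below 0. GDF15 is a cytokine induced by cell stress that signals through GFRAL and RET in the brainstem. Its level was 8.14, 8.97, 8.61 and 8.24 in RWDD4 clones 17, 24, 5 and 6, and 10.61, 10.80, 11.18 and 9.80 in control clones 2, 3, 4 and 5. The groups did not overlap, and control clone 5 was the lowest control. GDF15 fell by 2.11 (SE 0.27), or 4.31-fold (adjusted p 0.000193, limma). This was the only fall of more than 2-fold among the 40 genes, and its 95% interval ran from -2.71 to -1.51. Of its receptor genes, GFRAL lay at 3.18 ± 0.15 and 3.08 ± 0.12 and RET at 5.09 ± 0.13 and 5.14 ± 0.29 (SD, n = 4, RWDD4 and control clones), and neither passed the test.

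The other ligands that fell changed less. GDF1, which forms dimers with NODAL, lay at 6.19, 6.01, 6.01 and 5.76 in the RWDD4 clones and at 6.69, 6.31, 6.53 and 6.44 in the control clones, and fell by 0.50 (SE 0.12, adjusted p 0.00602 from limma). The annotated span of GDF1 lies inside that of CERS1, so its signal cannot be assigned to GDF1 with certainty. BMP8A fell by 0.40, from 7.77 ± 0.17 to 7.37 ± 0.09 (SD, n = 4 each), while its near-identical neighbour BMP8B lay at 6.57 and 6.60. Probes can cross between these paralogs, so their difference is uncertain.

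GDF10, GDF7 and BMP7 fell by 0.36, 0.31 and 0.30, and in all 3 genes the groups did not overlap. BMP7, a BMP of kidney and bone, lay at 6.01 to 6.18 with RWDD4 and 6.32 to 6.49 in the controls. After cyclic loess these 3 genes did not pass (adjusted p 0.0567 to 0.0635 from limma). With the trend over genomic span removed GDF10 and GDF7 did not pass either, at -0.22 and -0.15, while BMP7 lay at -0.61. GDF7 also did not pass without RWDD4 clone 5 (-0.27). GDF5, a ligand of joint formation, was at the edge of the test, at -0.25 with an adjusted p of 0.047 and overlapping groups. Besides the covariate, it did not pass in 11 other settings, among them those without RWDD4 clones 24, 5 or 6 or without control clones 2, 3 or 4. Its second probe set gave -0.01.

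Of the 13 ligands that did not pass, 4 are described for their level or spread. BMP4, the dorsal and ventral patterning BMP, lay at 8.31 and 8.30 in control clones 2 and 3 and at 7.81 and 7.80 in control clones 4 and 5. The latter values meet the RWDD4 clones, which lay at 7.59, 7.80, 7.78 and 7.56, so that BMP4 missed the test (-0.37, adjusted p 0.0519 from limma). It passed after quantile normalization (-0.56), over genes above the median of all probe sets (-0.37), and without control clone 4 or 5 (-0.45 each). With the trend over span removed it lay at -0.13 (adjusted p 0.447). BMP6, a regulator of hepcidin, spread widely in the RWDD4 clones, at 6.21, 7.12, 6.59 and 7.24. The control clones lay at 6.94, 7.51, 7.44 and 6.94, within or just above the upper part of that range, and the difference of -0.42 did not pass. Its 95% interval ran from -0.92 to 0.08, and it passed after quantile normalization (-0.57) and with the trend over span removed (-0.71).

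GDF11, a relative of myostatin, lay at 8.38 ± 0.25 and 8.39 ± 0.13 (SD, n = 4, RWDD4 and control clones), with an interval of -0.30 to 0.27. BMP2 lay at 4.99 to 5.19 with RWDD4 and 5.15 to 5.39 in the controls. It did not pass, at -0.22, but did so without control clone 2 (-0.26) and with array weights (-0.26). After cyclic loess it lay at -0.10 and with the trend over span removed at -0.07. The means of BMP10, GDF6, GDF3, BMP5 and GDF9 over all clones lay below 4.92, the median of all probe sets. Whether these 5 genes or other dim members were expressed was not determined, for want of a background measure. KLK3, chosen as a gene low or absent in PC-3, lay at 5.49 to 6.10. GDF10, GDF5 and ACVRL1, which fell, did not exceed that range in any clone. Nor did GDF2, BMP2, BMP15 and SMAD7, which did not pass. BMP5 passed with the trend over span removed (-0.36) and lay at 0.04 after cyclic loess. BMP10 passed without control clone 4 (-0.34) and with a trended robust variance (-0.27), and lay at -0.08 with the trend over span removed. The remaining ligands, GDF2, BMP3, BMP15 and BMP8B, differed by -0.22 to 0.03.

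ACVRL1, the ALK1 receptor for GDF2 and BMP10 that is best known in endothelium, fell by 0.45 (SE 0.11, adjusted p 0.00596 from limma). Its level was 5.59, 5.54, 5.60 and 5.29 in the RWDD4 clones and 6.00, 6.09, 5.76 and 5.97 in the control clones. The groups did not overlap, with clone 6 lowest among the RWDD4 clones and clone 4 lowest among the controls. ENG, which encodes its co-receptor endoglin, fell by 1.08 (SE 0.26), from 8.43 ± 0.53 to 7.35 ± 0.41 (SD, n = 4 each). The endothelial markers VWF and PECAM1 lay at 4.48 to 5.76 over all clones and KDR at 7.65 to 9.70. Of these 3 markers only VWF changed, by -0.31.

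The SMADs held 3 of the 6 rises and 1 fall. SMAD5, a BMP receptor SMAD, lay at 7.12, 6.84, 7.35 and 7.18 in the RWDD4 clones and at 5.59, 5.83, 5.70 and 5.89 in the control clones. Both groups were tight and well apart even at their nearest values, 6.84 and 5.89. SMAD5 rose by 1.37 (SE 0.12), or 2.59-fold (adjusted p 5.98e-05, limma). Its antisense gene SMAD5-AS1 lay at 5.24 ± 0.19 and 5.22 ± 0.22 (SD, n = 4, RWDD4 and control clones) and did not pass the test.

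The other BMP receptor SMADs did not pass. SMAD1 lay at 5.69 and 5.76 in RWDD4 clones 17 and 24, beside the control clones (5.5, 5.69, 5.71 and 5.67), and at 6.30 and 6.20 in RWDD4 clones 5 and 6. Its difference was 0.34 (95% interval 0.03 to 0.66, adjusted p 0.0695 from limma), and it passed after median centring (0.39), after cyclic loess (0.44), and without RWDD4 clone 17 (0.44) or 24 (0.42). With the trend over span removed it lay at 0.05 (adjusted p 0.77). SMAD9 lay at 6.71, 7.06, 6.49 and 6.70 in the RWDD4 clones and at 6.33, 6.89, 7.02 and 6.65 in the control clones. The groups overlapped, and the difference of 0.02 did not pass (95% interval -0.34 to 0.38).

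SMAD2, which carries TGF-beta and activin signals, lay at 8.79, 8.46, 8.0 and 8.66 in the RWDD4 clones and at 6.54, 7.94, 7.71 and 7.5 in the control clones. The groups did not overlap, but RWDD4 clone 5 at 8.0 stood next to control clone 3 at 7.94. SMAD2 rose by 1.06 (SE 0.28), or 2.08-fold (adjusted p 0.00987, limma). Without control clone 2 its rise was 0.76 (adjusted p 0.00643, limma), under 2-fold. Its partner SMAD3 lay at 6.04, 6.53, 6.11 and 6.76 in the RWDD4 clones and at 6.34, 6.59, 6.11 and 6.41 in the control clones. The groups overlapped around a mean of 6.36 in both, with an SD of 0.34 in the RWDD4 clones and 0.20 in the control clones, and a 95% interval of -0.37 to 0.37.

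SMAD4, the common partner of all receptor SMADs, lay at 9.48, 9.38, 8.79 and 9.62 in the RWDD4 clones and at 6.95, 8.68, 8.43 and 8.60 in the control clones. Control clone 2 lay far below every other clone, and RWDD4 clone 5 at 8.79 stood close to control clone 3. SMAD4 rose by 1.15 (SE 0.34), or 2.23-fold (adjusted p 0.0186, limma). Without control clone 2 the rise was 0.75 (adjusted p 0.00635), and without RWDD4 clone 6 it did not pass (1.05, adjusted p 0.054). With the axis as a covariate SMAD4 lay at -0.63 (SE 0.46) and SMAD2 at -0.14 (SE 0.46), while SMAD5 lay at 0.95 (SE 0.22).

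SMAD2, SMAD4 and SMAD7 lie on chromosome 18 (GRCh38.p14). Over the 232 genes of that chromosome, control clone 2 lay a median of 0.23 log2 units below the mean of the other control clones. This was the lowest of 23 chromosomes in that clone, the next lowest being at -0.10, and the median over all genes was -0.03. In the RWDD4 clones the same measure for chromosome 18 ran from -0.01 to 0.03. The part of this shift in the values of SMAD2 and SMAD4 was not tested. Without that clone SMAD2 lay at 0.76 and SMAD4 at 0.75, against 1.06 and 1.15 with it, and both passed.

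The inhibitory SMADs did not rise. SMAD6 lay at 7.0, 7.41, 7.30 and 7.91 in the RWDD4 clones and at 8.05, 8.27, 7.70 and 7.68 in the control clones. RWDD4 clone 6 lay within the range of the controls, so the groups overlapped. SMAD6 fell by 0.52 (SE 0.19, adjusted p 0.0467 from limma), and besides the covariate it did not pass in 8 other settings, among them those without RWDD4 clones 17, 24 or 5 or without control clones 2 or 3. With the trend over genomic span removed it lay at -0.82. SMAD7 lay at 4.87, 5.06, 5.06 and 5.06 in the RWDD4 clones and at 5.02, 5.52, 5.11 and 5.24 in the control clones, and did not pass (-0.21). It passed with the trend over span removed (-0.32, adjusted p 0.0301 from limma), and lay at -0.11 without control clone 3 and at -0.09 after cyclic loess.

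**Figure D2:**
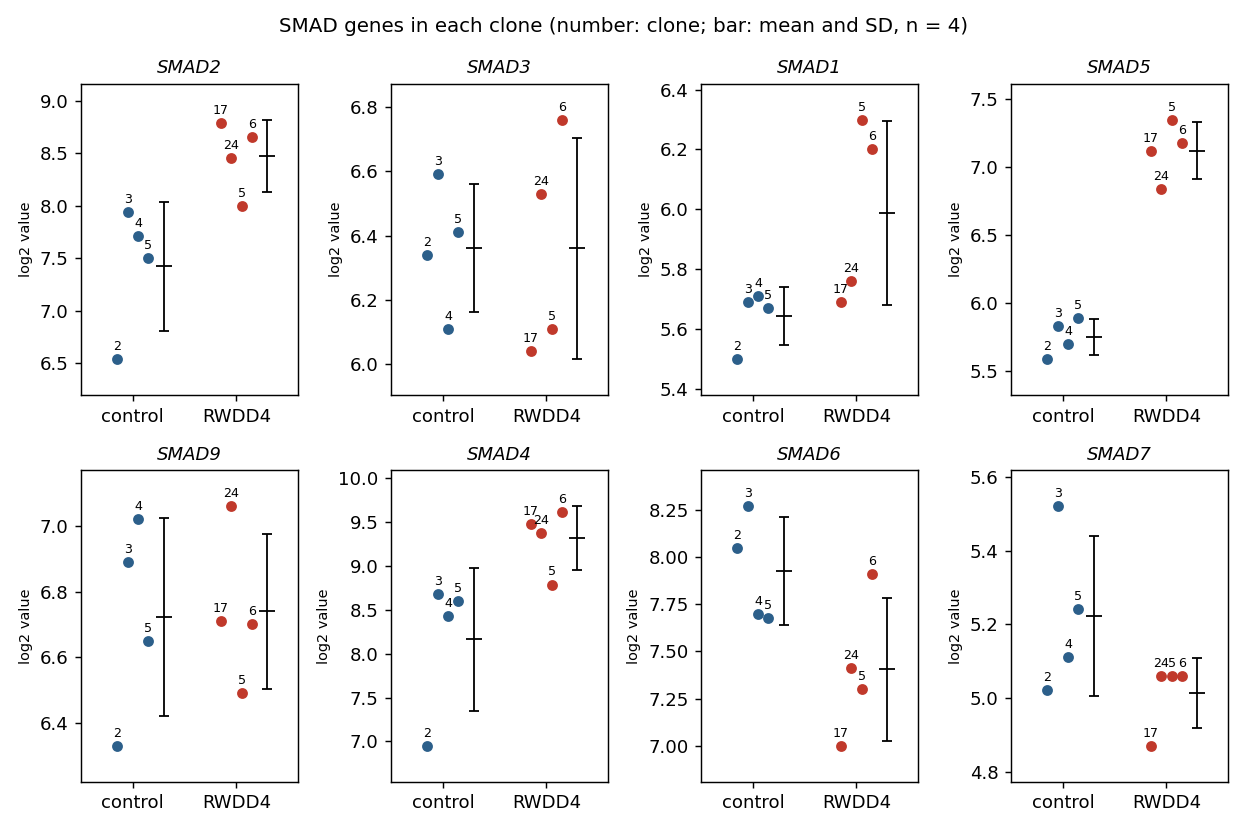
Log2 value of the 8 SMAD genes in each clone, numbered by clone, with control clones in blue, RWDD4 clones in red and black bars for the mean and SD of 4 clones; each panel has its own vertical scale. SMAD5 has tight groups that stand apart, SMAD2 and SMAD4 have control clone 2 at 6.54 and 6.95 below all other clones, and SMAD3 and SMAD9 overlap.

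The latent binding proteins moved in both directions, with LTBP1 up, LTBP3 down and the other 2 not past the test. LTBP1 anchors latent TGF-beta to the matrix. It lay at 10.58, 10.41, 10.79 and 10.81 in the RWDD4 clones and at 8.42, 9.54, 9.35 and 9.37 in the control clones. The RWDD4 clones lay close together, and control clone 2 lay below the other controls. LTBP1 rose by 1.47 (SE 0.22), or 2.78-fold (adjusted p 0.0004, limma), and by 1.22 without that clone. With the axis as a covariate its difference was 0.20 (SE 0.20).

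LTBP3, which also binds latent TGF-beta, lay at 8.03, 8.41, 8.20 and 8.26 in the RWDD4 clones and at 9.03, 9.03, 8.97 and 8.76 in the control clones. Every RWDD4 clone lay below every control clone. LTBP3 fell by 0.72 (SE 0.11), or 1.65-fold (adjusted p 0.000432, limma). LTBP4, another carrier of latent TGF-beta, and LTBP2, which does not bind it, lay at -0.22 and -0.16 and did not pass. Both passed after quantile normalization, at -0.42 and -0.36, and with the trend over span removed, at -0.38 and -0.47. The second probe set of LTBP2, at a mean of 3.78, gave a difference of 0.24, opposite in sign to the one used.

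Of the secreted antagonists both BMP antagonists fell and the activin antagonist rose. Noggin (NOG) binds BMP ligands and blocks their receptor sites. Its level was 8.46, 8.47, 8.47 and 8.35 in the RWDD4 clones and 9.29, 9.21, 9.28 and 9.30 in the control clones. The SD was 0.06 in the RWDD4 clones and 0.04 in the control clones, small beside the gap between the groups. NOG fell by 0.83 (SE 0.08), or 1.78-fold (adjusted p 6.67e-05, limma). The fall was 0.80 to 0.85 with any 1 clone left out, 0.55 with the trend over span removed and 0.76 (SE 0.17) with the axis as a covariate, where its adjusted p was 0.157.

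Gremlin (GREM1), another BMP antagonist, lay at 6.71, 6.62, 6.57 and 6.52 in the RWDD4 clones and at 6.99, 6.99, 7.26 and 7.06 in the control clones. It fell by 0.47 (SE 0.10, adjusted p 0.0026 from limma), with no overlap between the groups. Follistatin (FST), which captures activins and some BMP ligands, lay at 11.23, 11.24, 11.16 and 11.62 in the RWDD4 clones and at 10.21, 10.93, 10.87 and 10.91 in the control clones. The groups stood apart by a small margin, with RWDD4 clone 6 highest and control clone 2 lowest. FST rose by 0.58 (SE 0.17, adjusted p 0.0169 from limma), by 0.41 without control clone 2, and did not pass without RWDD4 clone 6 (0.48, adjusted p 0.052). With the axis as a covariate it lay at -0.30 (SE 0.22). BAMBI, a receptor decoy without kinase activity, lay at 6.59 to 7.16 and 6.83 to 7.38 and did not pass (-0.14).

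**Figure D3:**
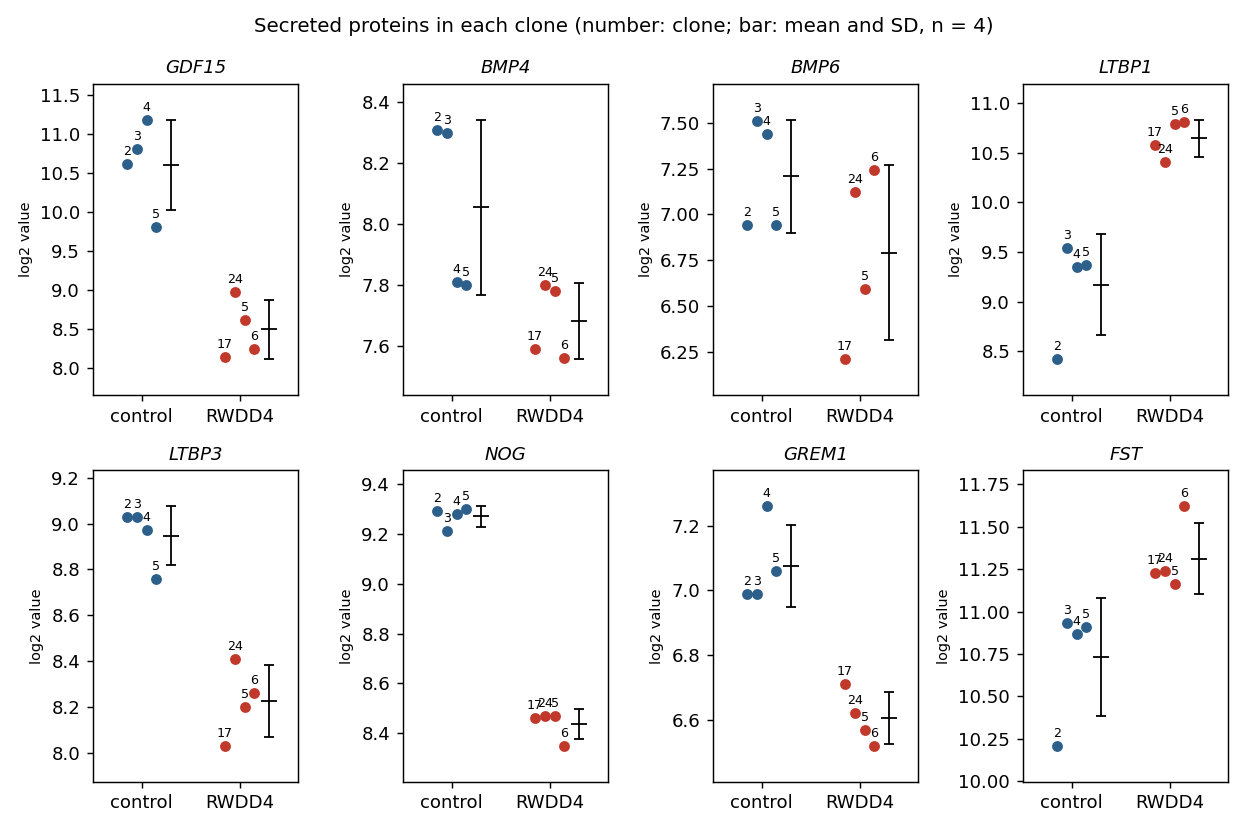
Log2 value of 8 secreted members in each clone, numbered by clone, with control clones in blue, RWDD4 clones in red and black bars for the mean and SD of 4 clones; each panel has its own vertical scale. The red points lie wholly below the blue for GDF15, LTBP3, NOG and GREM1 and wholly above for LTBP1 and FST. In BMP4, control clones 4 and 5 lie at 7.81 and 7.80, beside RWDD4 clone 24 at 7.80, and BMP6 overlaps.

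The remaining 3 genes carry the name without acting as ligand, receptor or SMAD. BMP2K, a kinase of clathrin-coated vesicles, lay at 8.17, 7.65, 7.80 and 8.01 in the RWDD4 clones and at 6.56, 6.98, 6.62 and 7.01 in the control clones. It rose by 1.12 (SE 0.14), or 2.17-fold (adjusted p 0.000199, limma). BMP1, a protease that processes procollagen and frees some ligands from antagonists, fell by 0.39, from 7.61 ± 0.19 to 7.21 ± 0.13 (SD, n = 4 each), and did not pass without RWDD4 clone 5 (-0.33, adjusted p 0.0529 from limma). TGFB1I1, a focal adhesion adaptor, lay at 8.74 to 8.92 and 8.51 to 8.81 and did not pass (0.13), but did so with the trend over span removed (0.39).

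The 6 genes that rose had a median genomic span of 88.4 kb, the 13 that fell 21.4 kb and all genes 20.7 kb. Spearman's rho between the difference and the span was 0.29 over the 40 genes and 0.36 over all 14884 genes. FST, at 6.51 kb, was the shortest of the genes that rose, and NOG and GDF15, at 1.91 and 3.02 kb, the shortest of those that fell. With each array's trend over span removed all 6 rises passed, at 0.75 to 1.33, and 10 of the 13 falls passed. Of those 10, SMAD6, BMP7 and BMP1 then lay at -0.82, -0.61 and -0.62. In all 6 genes that rose, control clone 2 was the lowest control clone. How many of all genes that rose share this was not counted. That clone lay furthest along the within-group axis, at 1.77, against 0.37 to 0.74 for the other control clones.

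**Figure D4:**
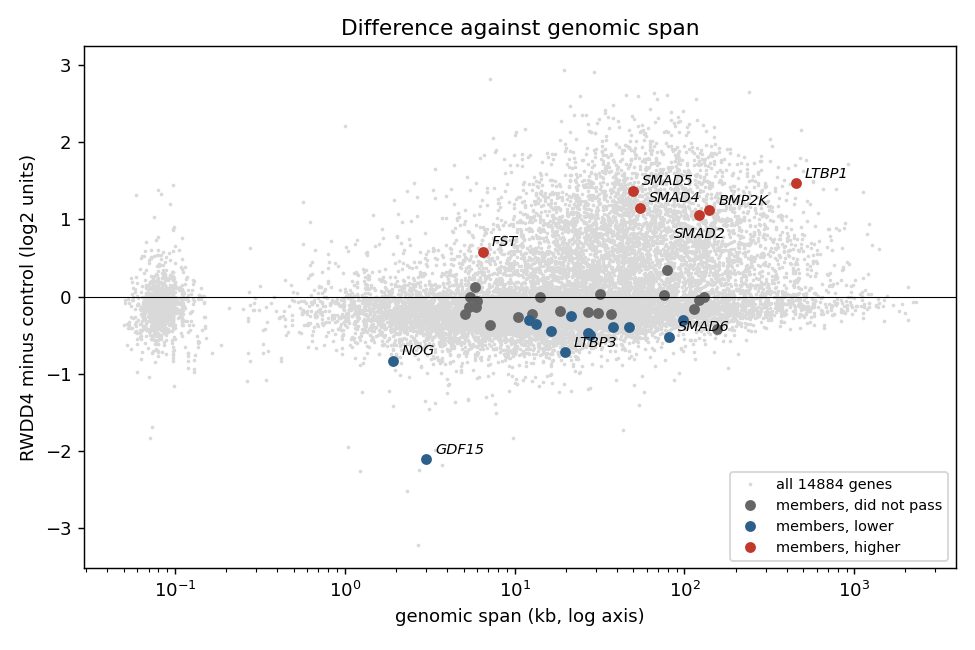
Difference between RWDD4 and control clones (log2 units) against genomic span (kb, log axis) for all 14884 genes in light grey and the 40 genes in colour: red rose, blue fell, dark grey did not pass. The genes that rose span 6.51 to 453 kb, and GDF15 and NOG lie at short spans.

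**Figure D5:**
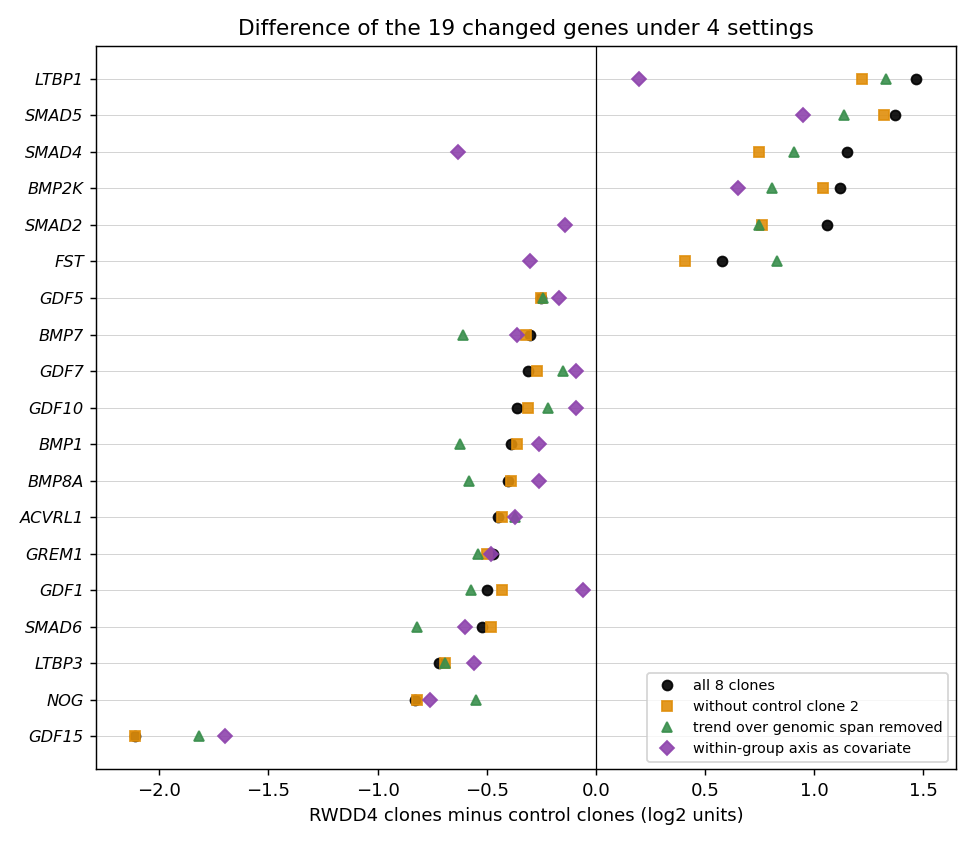
Difference between RWDD4 and control clones (log2 units) of the 19 genes that changed, over all 8 clones (black circles), without control clone 2 (orange squares), with the trend over genomic span removed (green triangles) and with the axis as a covariate (purple diamonds). GDF15, NOG and SMAD5 keep their side of 0 at -1.70, -0.76 and 0.95 under the covariate, and SMAD4, SMAD2 and FST cross it.

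Other regulators of the pathway were read from a list of 65 genes, of which 44 were measured. Of these 16 rose and 7 fell, with a median of 0.02, against 25.1% of all genes that rose and 21.6% that fell. With the trend over span removed, 12 rose and 10 fell. The rises included enzymes that tag SMADs and receptors with ubiquitin. WWP1, such a ligase, lay at 8.62, 8.32, 8.64 and 8.71 in the RWDD4 clones and at 6.14, 7.08, 6.63 and 7.05 in the control clones, and rose by 1.85 (SE 0.19, adjusted p 8.17e-05 from limma). SMURF2 and SMURF1, ligases of the same family named after their values were seen, rose by 0.95 and 0.49. TRIM33, which acts on SMAD4, rose by 1.72, and the deubiquitinase USP15 by 1.02. USP4, also in the list, lay at 0.20 and did not pass. WWP1, SMURF2, SMURF1, TRIM33 and USP15 span 117 to 156 kb, against a median of 20.7 kb for all genes. In each of them control clone 2 was the lowest control clone. Their single values with the trend over span removed were not read.

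Among extracellular regulators in this list, the BMP-binding TWSG1 and CHRDL1 rose by 1.79 and 1.76. TWSG1 lies on chromosome 18 and had its lowest value, 6.32, in control clone 2. CHRDL1 varied most within the control clones, from 4.96 in clone 2 to 7.44 in clone 3. FSTL3, a relative of follistatin that also binds activin, fell by 1.03, from 8.80 ± 0.31 to 7.77 ± 0.40 (SD, n = 4 each), while FST rose. FURIN, the protease that matures many of the ligands, fell by 0.73. NODAL, a ligand that signals through activin receptors, fell by 0.44, and LEFTY1, a secreted inhibitor of NODAL, by 0.40. NODAL had 2 probe sets and was dim, at 4.70 to 5.58 over all clones. LEFTY1 had overlapping groups and an adjusted p of 0.0347 from limma. The matrix genes FBN2 and FBN1, whose fibrillins hold LTBP complexes, rose by 1.35 and 0.59, and MAP3K7, the kinase of the branch without SMADs, by 1.61. TAB1, also in this list, fell by 0.43 (adjusted p 0.0141 from limma), with no overlap between the groups. After cyclic loess, and also without RWDD4 clone 5, 4 genes of this list fell. With the mean of all probe sets of a gene, 6 fell.

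Of 36 genes often cited as targets of TGF-beta or BMP signals, 19 were measured, 3 rose and 5 fell, with a median of -0.11, against 25.1% and 21.6% of all genes. FN1 (fibronectin) rose by 1.31, the TGF-beta early gene KLF10 by 0.53 and the tropomyosin gene TPM1 by 0.34. TPM1 had 2 probe sets, overlapping groups and an adjusted p of 0.032 from limma. With the mean of all probe sets of a gene, 2 targets rose. JUNB fell by 1.23, from 10.75 ± 0.30 to 9.53 ± 0.40 (SD, n = 4 each), ANGPTL4 by 1.06 and the cytokine IL11 by 0.74. CCN2, SNAI1 and SNAI2, also cited as targets, lay at 0.15, -0.17 and 0.42 and did not pass. The BMP targets MSX1 and MSX2 lay at -0.34, a fall, and 0.09, not past the test. With the trend over span removed 5 targets rose and 3 fell, and after quantile normalization 8 fell.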

How the data were processed

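The authors deposited log2 values, 1 per probe set and array, for 53617 probe sets on 8 arrays. Partek and RMA are named in the submitters' processing notes, RMA being a method that corrects background, normalizes arrays to each other and summarises probes, without version or settings. For build, scan date and batch nothing is stated in the sources used here. Array number limits the precision.

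The probe annotation gave exactly 1 symbol to 16098 probe sets, standing for 14884 genes, all found by gene ID in RefSeq's gene table (GRCh38.p14), used for symbols, chromosome and span. No dim filter was applied. The comparison, RWDD4 minus control clones, was fitted with lmFit and eBayes of limma 3.58.1 (R 4.3.3) on all genes, without covariates. RWDD4 was also tested by exact permutation over 70 relabellings. Members at an adjusted p under 0.05 with a difference of 0.5 or more, receptors and SMADs are given clone by clone, and up to 6 genes of each list (the 3 largest per direction). Other names were chosen after values were seen. The members and lists were chosen with earlier results of these data known.

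Alternatives were the variance model, the probe set, a level filter, 3 scalings, array weights, removal of each array's lowess trend (span 0.3) over genomic span, the within-group axis (38.9% of within-group variation) and leaving out each clone. The fit was also run on simulated data over 14884 genes, with noise drawn independently for each gene. In these, 50, 100 and 50 genes were changed by 0.5, 1 and 2 log2 units, and 48%, 89% and 100% were recovered. Far fewer genes changed there than the 6955 here, so these shares need not hold for the real comparison.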

Additional observations from a re-analysis of the deposited data

Results flagged for a closer look

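In 7 of 80 sets of 4 clones, 1 clone lay apart from the other 3, its gap to the nearest of them being above Dixon's critical value as a share of the whole range. Chance alone gives this in about 1 of 20 sets. Control clone 2 was the low clone for SMAD4 (6.95, others 8.43 to 8.68), LTBP1 (8.42, others 9.35 to 9.54) and FST (10.21, others 10.87 to 10.93). RWDD4 clone 6 was the high clone for FST (11.62, others 11.16 to 11.24) and the low clone for NOG (8.35, others 8.46 to 8.47). RWDD4 clone 17 was low for SMAD7 (4.87, others 5.06) and RWDD4 clone 5 for BMP1 (7.03, others 7.27 to 7.29). For NOG the gap to the next clone was small beside the fall of 0.83.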

How the results depend on the processing

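Of the 19 genes that changed, 14 to 19 kept direction and call under each alternative other than the covariate. GDF15, GDF1, BMP8A, ACVRL1, SMAD2, SMAD5, LTBP1, LTBP3, NOG, GREM1 and BMP2K did so under all of those. Under the axis covariate no member, modulator or target passed (0 in either direction), and over all genes 0 rose and 1 fell, the non-coding LOC285889 at -2.25, named after its value was seen, with 1910 genes at an unadjusted p under 0.05. There signs turned for BMP4 (0.01), BMP5 (0.15), BMP8B (-0.02), SMAD9 (-0.35), SMAD1 (-0.10), SMAD2 (-0.14), SMAD4 (-0.63), LTBP4 (0.11), LTBP2 (0.12) and FST (-0.30), each but SMAD4, SMAD9 and FST smaller than its error.

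Cyclic loess gave 8 members that fell, a median of -0.10 and 4 modulators that fell. Quantile normalization gave 8 targets that fell, and removal of the span trend 5 that rose and 3 that fell. With 1 clone left out, members that rose numbered 4 to 7 and members that fell 9 to 14, and modulators that fell 4 to 7. No paired analysis was possible because the labels pair no RWDD4 clone with a control clone. Clone number 5 occurs in both groups but names separate isolates.

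Other sign changes concerned members that had not passed. After quantile normalization BMP5 lay at 0.01, GDF9 at 0.05, BMP8B at -0.07, SMAD9 at -0.10 and TGFB1I1 at -0.04. After median centring GDF11, GDF9 and SMAD3 lay at 0.03, 0.03 and 0.04, and after cyclic loess GDF3, BMP5, GDF11, GDF9 and SMAD3 at 0.01, 0.04, 0.00, 0.08 and 0.08. With the span trend removed GDF2, BMP15, GDF3, GDF11, GDF9, BMP8B, SMAD9 and BAMBI lay at 0.05, 0.13, 0.20, 0.11, 0.25, -0.09, -0.28 and 0.12. Array weights gave SMAD3 0.00 and SMAD9 -0.08, and the mean of probe sets gave LTBP2 0.04. With 1 clone left out, values crossed 0 for BMP5 (-0.10 to 0.02), GDF11 (-0.12 to 0.08), GDF9 (-0.04 to 0.02), BMP8B (-0.06 to 0.10), SMAD3 (-0.14 to 0.11) and SMAD9 (-0.12 to 0.12). Signal over background was not measured, so differences of the dimmest members could not be judged against it.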
